A study of Mus musculus with 15 samples.

Results

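The aryl hydrocarbon receptor (AHR) genes examined here are Ahr, its partner Arnt, its repressor Ahrr and 3 transcripts that the receptor is known to induce, Tiparp, Cyp1b1 and Cyp1a1. They were taken by gene symbol, 6 of the 56980 genes listed in the expression table, and each was present. RNA-seq was done on 15 libraries, each from a DBA/2J-mdx mouse, a dystrophin-deficient strain on a DBA/2 background that models Duchenne muscular dystrophy. All mice of all groups carried the mdx mutation, and no healthy mice were among these libraries. In tibialis anterior (TA) muscle, 4 mice received dasatinib and quercetin (D + Q) and 4 received vehicle, starting at 3 months of age with tissue taken at 5 months, after 2 months of treatment at 2 doses per week. In heart, 3 mice received D + Q and 4 vehicle, starting at 12 months with tissue taken at 16 months, after 4 months at the same frequency. All 4 D + Q–treated TA mice were labelled male, whereas the vehicle TA group had 2 males and 2 females, and both heart groups were labelled as holding both sexes. Tissue, age and length of treatment changed together, so these cannot be told apart in any contrast between TA and heart.

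The AHR is a ligand-activated transcription factor of the bHLH-PAS family that waits in the cytoplasm with HSP90 and other chaperones. When a ligand binds, it enters the nucleus, pairs with ARNT and binds DNA at the short core GCGTG, and the transcripts that follow include those of the cytochrome P450 enzymes CYP1A1 and CYP1B1, of the ADP-ribosyltransferase TIPARP, which turns the receptor down, and of AHRR, which competes with it for ARNT. Flavonoids such as quercetin are known ligands of the AHR, which is the reason for asking whether these transcripts differed after D + Q. DBA/2 mice are known to carry an Ahr allele that encodes a receptor of low ligand affinity, which all groups share.

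The sequences in front of the 4 inducible genes show where the receptor's core could be read and how differently the genes are equipped. They come from the GRCm39 genome, whose strain is C57BL/6J and not DBA/2, with starts of the GENCODE M39 canonical transcripts. Each of the first 3 lines holds the 250 bases before the start, 5′ to 3′ on the strand of the gene, and the capitals mark GCGTG or its reverse complement CACGC. The last 2 lines hold the only sites of the longer form TNGCGTG (here as its reverse complement, in capitals) within 1000 bases of the Cyp1b1 start, each with 10 bases on either side.
Cyp1a1 promoter, chr9:57603892-57604141, plus strand: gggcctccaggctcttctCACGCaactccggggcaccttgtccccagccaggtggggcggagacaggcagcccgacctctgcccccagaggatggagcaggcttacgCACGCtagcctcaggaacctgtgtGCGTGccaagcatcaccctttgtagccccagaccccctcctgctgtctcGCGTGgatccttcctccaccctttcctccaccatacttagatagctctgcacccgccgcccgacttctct
Tiparp promoter, chr3:65435070-65435319, plus strand: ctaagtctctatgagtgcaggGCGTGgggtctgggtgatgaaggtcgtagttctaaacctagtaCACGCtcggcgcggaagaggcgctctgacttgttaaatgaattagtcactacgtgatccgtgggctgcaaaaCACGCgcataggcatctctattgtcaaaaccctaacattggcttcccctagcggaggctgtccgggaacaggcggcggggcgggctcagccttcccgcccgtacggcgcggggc
Ahrr promoter, chr13:74440463-74440712, minus strand: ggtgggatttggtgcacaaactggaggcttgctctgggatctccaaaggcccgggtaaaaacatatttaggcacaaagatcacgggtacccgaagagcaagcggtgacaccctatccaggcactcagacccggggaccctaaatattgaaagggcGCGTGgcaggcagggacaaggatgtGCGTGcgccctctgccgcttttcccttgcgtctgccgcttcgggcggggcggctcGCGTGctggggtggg
Cyp1b1 site 831 bases upstream, chr17:80023347-80023373, minus strand: agaagcggcgCACGCAAggcacagctc
Cyp1b1 site 812 bases upstream, chr17:80023328-80023354, minus strand: cacagctccgCACGCAAgggggaggcg

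Cyp1a1 held 4 cores in its 250 bases and 10 within 1000 bases, of which 6 had the longer form TNGCGTG, counting both strands, with every TNGCGTG also containing a GCGTG. Of 21770 promoters searched in the same way, 31.2% held at least 1 GCGTG within 250 bases and 54.8% within 1000 bases, whereas 4.80% and 12.4% held TNGCGTG. Having at least 6 TNGCGTG within 1000 bases was found in 1 promoter, that of Cyp1a1, and at least 10 GCGTG in 0.115% of promoters. Cyp1b1 also had 10 cores within 1000 bases, but 1 of them lay within 250 bases. Ahrr had 3 cores within 250 bases and 4 within 1000, with 2 of the longer form. Tiparp had 3 cores within 250 bases and no TNGCGTG, while the Ahr and Arnt windows had neither motif. These are matches of letters, not measured binding sites.

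The values are TPM, an estimate of a gene's share of the transcripts in a library corrected for transcript length, so levels of different genes can be set side by side. Each library sums to 1000000 TPM and its read depth is unknown, so precision rests on the spread between mice, and nothing in the labels says more about the replicates than that each is a separate sample. Within groups, libraries correlated at 0.977 to 0.991 on the log2 scale and no pair was identical. Genes above 0 TPM numbered 24089 to 25378 in vehicle-treated and 22579 to 22818 in D + Q–treated hearts, without overlap. In TA they numbered 23956 to 24393 with vehicle and 21830 to 24146 with D + Q. Summed markers followed the labelled tissues, with skeletal muscle markers at 35749 to 44794 TPM in TA and 1330 to 1783 TPM in heart, and cardiomyocyte markers at 24.9 to 82.2 TPM in TA and 14976 to 19318 TPM in heart. In 1 library, labelled male in the D + Q heart group, the sex genes went against the label, so by expression the 3 D + Q–treated hearts were all female, against 2 of 4 vehicle-treated hearts, and treatment and sex were partly confounded in heart. The hearts also differed in tissue markers: the 4 atrial genes summed to 862 to 4260 TPM in the vehicle group and 382 to 427 TPM in the D + Q group, and the 5 red cell genes to 346 to 1231 and 26.8 to 122 TPM.

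Arnt was the most abundant of the 6 transcripts in every group, followed by Tiparp in TA, while Ahr and Cyp1b1 lay at a few TPM and Cyp1a1 was at or near 0. ARNT is the shared dimer partner of AHR and the hypoxia-inducible factors. Group means of Arnt were 33.3 ± 3.41 (SD, n = 4) TPM in vehicle TA, 32.6 ± 5.46 (n = 4) in D + Q TA, 20.7 ± 1.14 (n = 4) in vehicle heart and 22.3 ± 1.63 TPM (n = 3) in D + Q heart. The ratio of Arnt to Ahr TPM within a library ranged from 5.97 to 22.0, so the partner outnumbered the receptor transcript in all 15 libraries. Genes were ranked by group mean among those above 0, and Ahr stood at the 57.4th to 63.6th percentile and Arnt at the 88.8th to 91.9th.

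**Figure D1:**
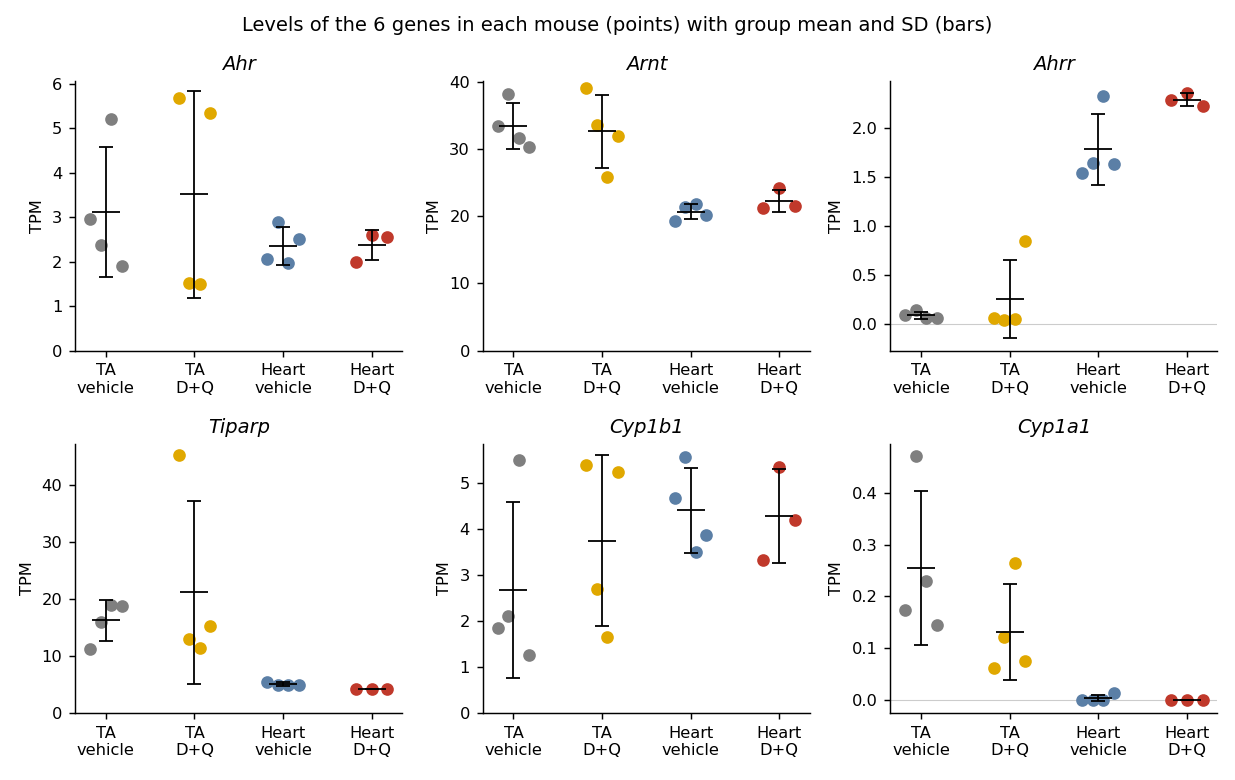
TPM of the 6 genes (y axes, each with its own scale) in the 4 groups (x axes). Points are single mice, horizontal bars with whiskers are group means with SD. Arnt and Tiparp are higher and Ahrr is lower in all 8 TA mice than in all 7 hearts, and Ahr and Cyp1b1 in TA separate into 3 mice above 5 TPM and 5 mice below 3 TPM, in both treatment groups.

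In TA, the transcript of the receptor itself was spread widely and did not separate the treatments. Listed from replicate 1 to 4, here and for the other genes, the vehicle-treated mice had 2.96, 2.38, 5.21 and 1.91 TPM of Ahr, and the D + Q–treated mice had 5.68, 1.53, 1.49 and 5.34 TPM. High and low mice occurred in both groups, with the lowest as well as the highest value among the D + Q–treated mice. The TA fit used limma on log2(TPM + 0.5) of 16298 genes with 1 surrogate variable. This variable is a per-mouse value estimated from all genes and meant to absorb variation other than treatment. For Ahr the fit gave a log2 fold change of -0.31 (SE 0.22, 95% confidence interval -0.81 to 0.19, limma, Benjamini-Hochberg adjusted p = 0.999). Fold changes on this scale understate those of genes with low TPM. Without the surrogate variable the estimate for Ahr was 0.02, so its sign depends on that term. The variable ran from -0.34 to 0.30 in vehicle-treated and from -0.42 to 0.70 in D + Q–treated mice. It can therefore also take up part of a difference between the treatments.

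Arnt did not separate the TA groups either. It was 33.4, 38.1, 31.6 and 30.3 TPM in vehicle mice and 39.1, 33.6, 25.8 and 31.9 TPM in D + Q–treated mice. Both the highest and the lowest value were in D + Q–treated mice, and the difference was -0.10 on the log2 scale (SE 0.14, interval -0.41 to 0.21, limma adjusted p = 0.999).

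Among the induced genes in TA, Tiparp had 1 value far above the rest. It was 11.3, 16.0, 19.0 and 18.9 TPM with vehicle and 45.3, 13.1, 11.5 and 15.3 TPM with D + Q. D + Q replicate 1 stood apart, and the other 3 D + Q–treated mice lay within the vehicle range. The log2 fold change was -0.08 (SE 0.26, interval -0.66 to 0.49, limma adjusted p = 0.999), it was 0.17 without the surrogate variable and 0.29 among males only, and leaving out single mice moved it from -0.27 without D + Q replicate 1 to 0.72 without D + Q replicate 3.

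Cyp1b1, which oxidises steroids and polycyclic hydrocarbons, had high and low mice in both TA groups. It was 1.86, 2.11, 5.49 and 1.27 TPM in vehicle TA and 5.40, 2.70, 1.67 and 5.24 TPM in D + Q TA. The log2 fold change was 0.15 (SE 0.24, interval -0.38 to 0.67, limma adjusted p = 0.999). It was 0.46 without the surrogate variable, and leaving out single mice moved it from 0.041 without D + Q replicate 4 to 0.59 without D + Q replicate 3, with 0.44 without vehicle replicate 3.

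Cyp1a1, the classical readout of AHR activity, was low in TA and was not higher in the D + Q group. It was 0.174, 0.471, 0.229 and 0.144 TPM in vehicle mice and 0.0615, 0.121, 0.264 and 0.0743 TPM in D + Q–treated mice. The means were 0.254 ± 0.149 and 0.130 ± 0.0929 TPM (SD, n = 4 each), and the groups overlapped. An exact two-sided permutation test of the mean log2(TPM + 0.5) gave p = 0.200, where the smallest p that 4 against 4 mice allow is 0.0286. Cyp1a1 and Ahrr were below the filter of 0.5 TPM in at least 3 mice and were therefore outside the TA fit.

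Ahrr in TA was at most 0.142 TPM in 7 of 8 mice. It was 0.0909, 0.142, 0.0626 and 0.0600 TPM with vehicle and 0.0653, 0.0378, 0.0562 and 0.853 TPM with D + Q. The single high value, in D + Q replicate 4, set the D + Q mean of 0.253 ± 0.400 TPM (SD, n = 4), and the exact permutation test of the means gave p = 0.943.

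Of the 4 genes that entered the TA fit, 0 were called at an adjusted p under 0.05 with an absolute log2 fold change above 0.5, against a background of 0% of all genes, and 0 had an unadjusted p under 0.05, against 2.99% of all genes. None of the 6 genes had groups that did not overlap, against 1.52% of all genes. The intervals leave room for changes of Ahr, Tiparp and Cyp1b1 larger than 0.5 on the log2 scale. The smallest adjusted p of any gene in the TA fit was also 0.999 (limma).

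What did run together in TA were Ahr, Cyp1b1 and part of the other known targets, across mice of both groups. The 3 highest values of Ahr (5.21 to 5.68 TPM) and of Cyp1b1 (5.24 to 5.49 TPM) were in the same mice, D + Q replicates 1 and 4 and vehicle replicate 3, while the other 5 mice had 1.49 to 2.96 and 1.27 to 2.70 TPM. These mice also had the 3 highest values of the surrogate variable, 0.70, 0.23 and 0.30, against -0.42 to -0.13 in the others. They were picked out because of their Ahr values, so this is a description with no test. Genes were counted only where at least 4 mice reached 0.5 TPM, so that none entered through these 3 mice alone. Of all 15727 such genes, 6.36% had their 3 highest values in these 3 mice. Of 10 other known AHR targets, 5 did, among them Ugdh, Xdh, Nfe2l2 and Slc7a5. This list and those below were chosen with earlier results of these data known, so their shares are descriptions and no test. The other induced genes did not share the order. Cyp1a1 was 0.0615 to 0.229 TPM in these mice and 0.121 to 0.471 TPM in the other 5, Tiparp in D + Q replicate 4 was 15.3 TPM, below vehicle replicates 2 and 4, and Ahrr was high in D + Q replicate 4 alone.

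**Figure D2:**
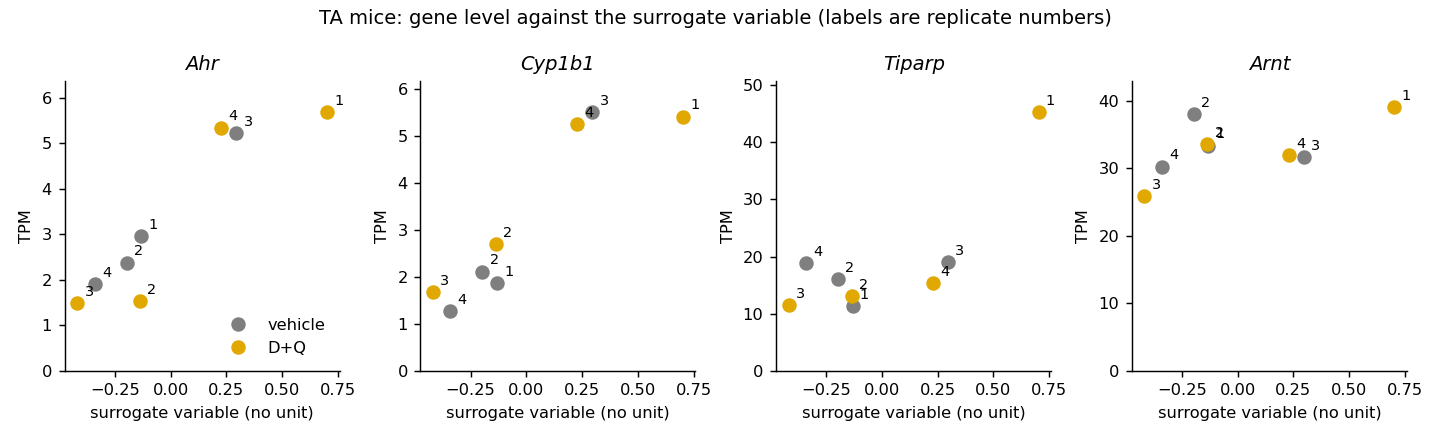
TPM of Ahr, Cyp1b1, Tiparp and Arnt (y axes) in the 8 TA mice against the surrogate variable of the TA fit (x axes, no unit). Grey points are vehicle-treated and yellow points D + Q–treated mice, with replicate numbers. Vehicle replicate 3 and D + Q replicates 1 and 4 lie to the right and highest for Ahr and Cyp1b1, while for Tiparp D + Q replicate 1 stands alone at 45.3 TPM.

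Ugdh, which makes the sugar donor for glucuronidation, was 28.2, 67.1 and 26.3 TPM in vehicle replicate 3 and D + Q replicates 1 and 4, against 7.75 to 15.2 TPM in the others. Hif1a, the hypoxia-inducible relative of Ahr, had the same 3 highest mice at 33.1, 50.5 and 30.5 TPM, against 12.0 to 18.9 TPM. Of the tryptophan-kynurenine enzymes, which make endogenous AHR ligands, 0 of 6 had this order, against 6.36% of all genes. For chaperones and coactivators it was 2 of 11, and for targets of the hypoxia-inducible factors 2 of 9. Among marker genes of other cell types, 1 of 6 macrophage and 1 of 6 fibroblast markers had this order, and 0 of 6 skeletal muscle markers. The summed macrophage markers were nevertheless highest in these 3 mice, at 197, 221 and 208 TPM, against 108 to 190 TPM in the other 5, whereas summed fibroblast markers were not. The part of these cell types in the pattern was not tested. In whole muscle, more cells of a type and more RNA per cell cannot be told apart.

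In heart, Tiparp was lower in every D + Q–treated mouse than in every vehicle-treated mouse, but the difference did not pass the adjusted threshold. Its values were 5.57, 5.00, 5.03 and 4.91 TPM with vehicle and 4.29, 4.34 and 4.23 TPM with D + Q. The means were 5.13 ± 0.303 (SD, n = 4) and 4.29 ± 0.0517 TPM (SD, n = 3). The heart fit with labelled sex gave -0.23 on the log2 scale (SE 0.09, interval -0.44 to -0.02, limma adjusted p = 0.255), and the exact permutation test over mice gave p = 0.0286, the smallest that 3 against 4 mice allow. Among the 6 genes Tiparp alone had groups that did not overlap, and 5.57% of all 16132 genes in the heart fit were lower without overlap and 15.2% were so in either direction.

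The hearts with lower Tiparp were also those with lower atrial and red cell markers, as given above. Fibroblast markers summed to 594 to 839 TPM with vehicle and 477 to 559 TPM with D + Q, and cardiomyocyte markers to 14976 to 16195 and 18120 to 19318 TPM. With an atrial marker score in the model in place of sex, the Tiparp estimate was -0.44 (limma adjusted p = 0.589), in a fit whose median over all genes was 0.36 in place of 0.00. Their part in the Tiparp difference was not tested further.

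The receptor and its partner overlapped between the heart groups. Ahr was 2.05, 2.89, 1.96 and 2.50 TPM with vehicle and 2.00, 2.59 and 2.55 TPM with D + Q. The highest and the lowest value were both in vehicle-treated hearts, and the fit gave a log2 fold change of 0.02 (SE 0.16, interval -0.36 to 0.41, limma adjusted p = 0.963). Arnt was 19.3, 21.4, 21.8 and 20.2 TPM with vehicle and 21.3, 24.2 and 21.5 TPM with D + Q, a difference of 0.09 (SE 0.07, interval -0.07 to 0.25, limma adjusted p = 0.541). The intervals of Ahr and Arnt lie wholly within 0.5 of 0 on this scale, which understates changes of a gene as low as Ahr.

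Ahrr, the repressor, was readily measured in heart, unlike in TA. It was 1.54, 1.65, 2.33 and 1.63 TPM with vehicle and 2.30, 2.36 and 2.23 TPM with D + Q. The D + Q–treated hearts were close together and above 3 of the 4 vehicle-treated hearts, but vehicle replicate 3 lay among them. The log2 fold change of 0.27 (SE 0.14, interval -0.05 to 0.60) had a limma adjusted p of 0.354, and with the atrial score in place of sex, where all genes had the median of 0.36, it was 0.69 (limma adjusted p = 0.592).

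Neither cytochrome was higher in D + Q–treated hearts. Cyp1b1 was 4.69, 5.58, 3.50 and 3.88 TPM with vehicle and 3.32, 5.35 and 4.19 TPM with D + Q. These ranges overlapped, and the log2 fold change was -0.04 (SE 0.20, interval -0.52 to 0.43, limma adjusted p = 0.932). Cyp1a1 was listed at 0 in 6 of 7 hearts and at 0.0128 TPM in vehicle replicate 4, so no fold can be given.

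Without D + Q replicate 3, the heart whose sex genes went against its label, the log2 fold changes were -0.06 for Ahr, 0.07 for Arnt, 0.20 for Ahrr, -0.06 for Cyp1b1 and -0.20 for Tiparp, with 0 calls. Of the 5 genes in the heart fit, 0 were called, against 0.316% of all genes, and 1, Tiparp, had an unadjusted p under 0.05, against 17.6% of all genes. In a fit of all 15 libraries with sex as covariate, the D + Q effect in heart minus that in TA was 0.19 for Ahr, 0.09 for Arnt, -0.02 for Ahrr, -0.45 for Tiparp and -0.31 for Cyp1b1, with limma adjusted p = 1.00 for each. Of the 5, 0 were called against 0.0616% of all genes and 0 had an unadjusted p under 0.05 against 4.22%. The intervals were wide, from -1.55 to 0.65 for Tiparp and from -1.04 to 1.43 for Ahr. This fit has no surrogate variable, so the TA effects in it are not those of the TA fit. Ahrr, outside the TA fit, was near 0 TPM in most TA mice.

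**Figure D3:**
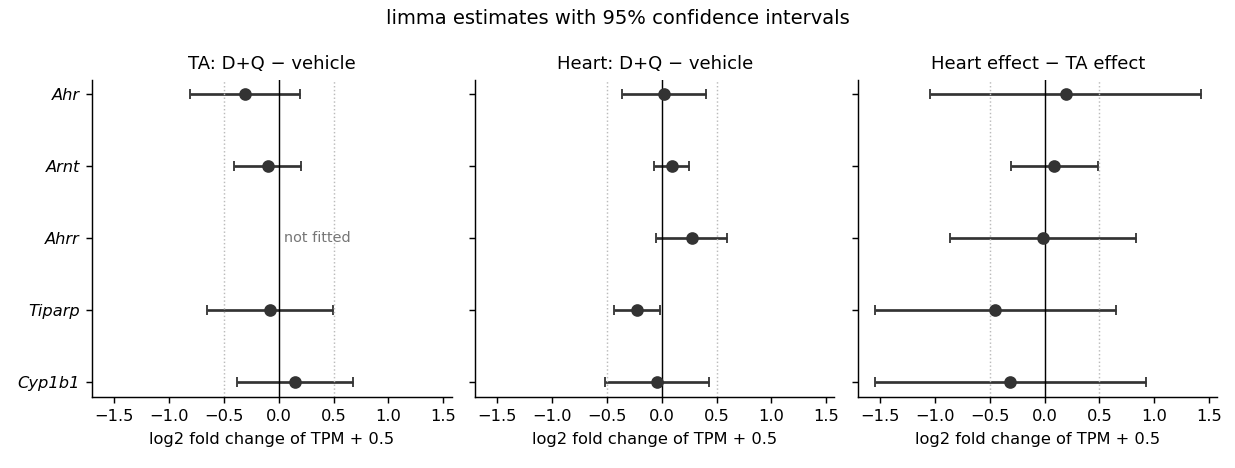
Log2 fold changes of TPM + 0.5 (x axes) with 95% confidence intervals (bars) for the genes that could be fitted, in TA, in heart and for the heart effect minus the TA effect. Dotted lines mark 0.5 in both directions, and the interval of Tiparp in heart, -0.44 to -0.02, is the only one that leaves out 0.

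Levels differed between the tissues for Tiparp, Arnt and Ahrr. In vehicle-treated mice, 3 of the 5 fitted genes were called between TA and heart, against 36.7% of all genes, and 4 of the 6 had groups that did not overlap, against 40.9%. Tiparp was higher in TA by 1.55 (SE 0.32, limma adjusted p = 0.00136) and Arnt by 0.67 (SE 0.12, limma adjusted p = 0.000296) on the log2 scale. Ahrr was lower in TA, with means of 0.0889 and 1.79 TPM and a difference of -1.95 (SE 0.25, limma adjusted p = 2.06e-05). The size of this difference depends on the pseudocount, at -3.32 with 0.1 and -1.35 with 1. Ahrr passed the filter of this fit through the hearts, where it is high, and did not pass it in TA alone. Its calls here and between the D + Q–treated tissues therefore describe its levels and are no test. The counts of calls include it. Cyp1a1, outside the fit, was above its heart values in each TA mouse.

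The D + Q–treated mice gave the same 3 calls, against 34.7% of all genes, and the same 4 genes without overlap, against 46.7%. Tiparp differed by 2.00 (SE 0.40, limma adjusted p = 0.00116), Arnt by 0.59 (SE 0.14, limma adjusted p = 0.00496) and Ahrr by -1.93 (SE 0.31, limma adjusted p = 0.000188). The median of all genes was 0.16 in both contrasts, and 0.00 after median-of-ratios scaling, under which Arnt fell to 0.49 and 0.40, below the fold threshold. Ahr was not called in either contrast, at 0.27 (SE 0.36) and 0.08 (SE 0.44), and Cyp1b1 was at -0.77 (SE 0.36, limma adjusted p = 0.103) and -0.46 (SE 0.45). Without vehicle TA replicate 3, one of the mice with high Cyp1b1, its vehicle contrast was -1.13 (limma adjusted p = 0.0146).

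The order of the groups by mean TPM summarises this. For Ahr, all neighbours in the order overlapped, from 3.51 ± 2.32 TPM (SD, n = 4) in D + Q TA to 2.35 ± 0.432 (SD, n = 4) in vehicle heart, and the same held for Cyp1b1, from 4.41 ± 0.922 in vehicle heart to 2.68 ± 1.91 in vehicle TA. For Arnt, Ahrr and Cyp1a1 the gap without overlap lay between the tissues only. For Tiparp there were 2 such gaps, between the tissues and between the heart groups.

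Genes that followed each AHR gene most closely were ranked by Pearson correlation of log2(TPM + 0.5) over the 15 libraries after group means had been removed. These are descriptions, and the points share the TA mice that stood apart. Nearest to Ahr were Snhg15 (0.978), the chemokine Cxcl5 (0.974) and the matrix proteoglycan Vcan (0.964). Nearest to Cyp1b1 were Irgm2 (0.953), Depdc7 (0.945) and the myeloid kinase Fgr (0.943), to Tiparp Ripk1 (0.960), Ttc39b (0.958) and Gvin2 (0.952), and to Arnt Mtcl2 (0.953), Fmn1 (0.953) and the laminin receptor subunit Itga6 (0.947). Among the 3 nearest to Ahrr were Slitrk4 (0.899) and Klhl18 (0.884). Likeness over all libraries did not always hold in each tissue. Ripk1 correlated with Tiparp at 0.977 over the 8 TA libraries and at -0.18 over the 7 hearts. Gvin2 with Tiparp was at 0.980 and 0.097, and Vcan with Ahr at 0.987 and 0.42. The other named genes were at 0.563 (Ttc39b with Tiparp) or higher over the hearts, and Cyp1b1 and Fgr correlated at 0.960 and 0.950.

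Around these genes, the other known AHR targets gave no call in either tissue. Of 16 listed, 13 entered the TA fit and 0 had an unadjusted p under 0.05, with a median log2 fold change of -0.07, that of all genes also being -0.07. In heart, 12 were fitted and 2 had a lower level at an unadjusted p under 0.05, against 7.99% of all genes. The median of the 12 was -0.15, against 0.00 for all genes. Nfe2l2, the regulator of the antioxidant response, was at -0.16 (limma adjusted p = 0.197), and Nqo1, a quinone reductase that NFE2L2 also induces, at 0.06 (limma adjusted p = 0.858). Ugt1a6a and Ugt1a7c, glucuronosyltransferases that share exons and whose reads are hard to assign, were at -0.32 and -0.38 (limma adjusted p = 0.333 and 0.323).

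The calls near the AHR were in its own protein family. Of 13 other bHLH-PAS genes, 6 entered the heart fit and 2 rose with D + Q, against 0.105% of all genes, with a list median of 0.60. The list was chosen with earlier results of these data known, so this share is a description and no test. Bmal1, a core activator of the circadian clock, was 2.41, 2.03, 3.15 and 1.35 TPM with vehicle and 9.47, 10.2 and 8.55 TPM with D + Q. This was a log2 fold change of 1.85 (SE 0.20, limma adjusted p = 0.0284), and its effect differed from that in TA by 1.90 (SE 0.25, limma adjusted p = 0.00842, and 0.101 with a replicate block). Epas1, which encodes HIF-2α, rose by 0.63 (SE 0.08, limma adjusted p = 0.0355), from 45.8 to 57.7 TPM with vehicle to 80.5 to 82.5 TPM with D + Q. Both calls were close to the threshold. Leaving out single hearts, the Bmal1 call was lost in 5 of 7 fits (without vehicle replicate 2 or 4 or any D + Q–treated heart, limma adjusted p up to 0.176) and the Epas1 call in 6 of 7 (all but vehicle replicate 3, up to 0.142), and with the atrial score in place of sex Bmal1 was 2.15 (limma adjusted p = 0.511) and Epas1 0.20, below the all-gene median of 0.36 in that fit, and neither was called. Each call was lost in 5 of 10 other settings, among them the replicate block (limma adjusted p = 0.146 for Bmal1 and 0.184 for Epas1) and no filter on low values (0.114 and 0.121). Clock and Npas2, the partners of BMAL1, also did not overlap and were at 0.56 and 1.19 (limma adjusted p = 0.0934 and 0.105). In TA, 9 of the family were fitted, 0 were called, and Bmal1 was at -0.09 (limma adjusted p = 0.999).

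**Figure D4:**
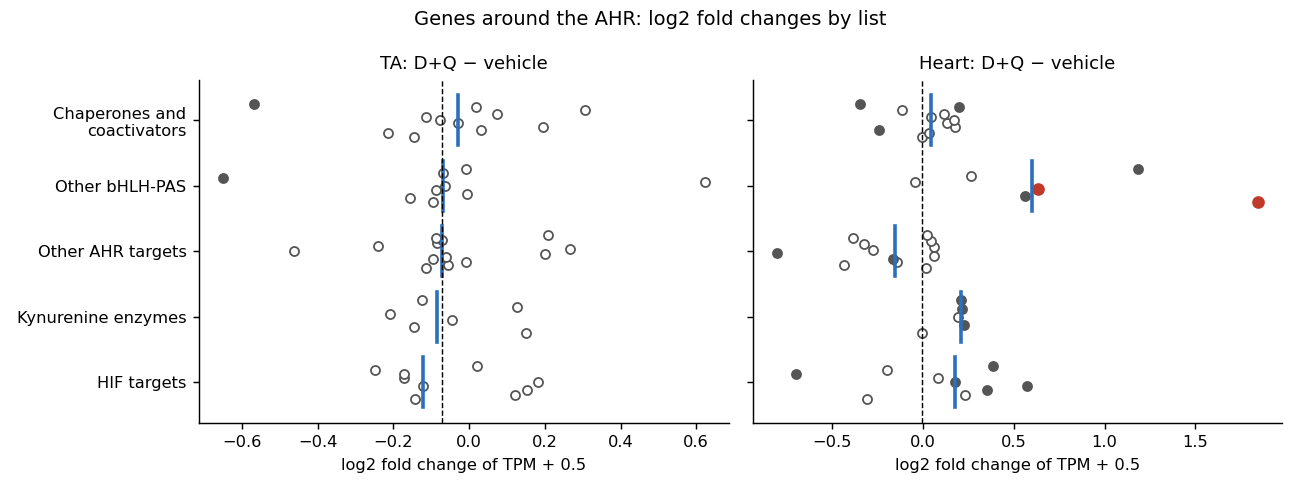
Log2 fold changes of TPM + 0.5 (x axes, different scales) for the fitted genes of 5 lists (rows) in TA and heart. Open points have an unadjusted p of 0.05 or more, filled grey points one under 0.05 and red points were called. Blue bars are list medians and the dashed line is the median of all genes. The red points are Bmal1 at 1.85 and Epas1 at 0.63, both in heart.

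Chaperones and coactivators of the receptor, 11 of 11 fitted, gave 0 calls in both tissues, with medians of -0.03 in TA and 0.04 in heart. Src, a kinase released from the receptor complex, was at -0.57 in TA (limma adjusted p = 0.999) and -0.34 in heart (limma adjusted p = 0.195). Ptges3, the HSP90 co-chaperone p23, was at 0.20 in heart (limma adjusted p = 0.198), and Hsp90ab1, the most abundant of the list, at 0.13 (limma adjusted p = 0.329). Of 12 tryptophan-kynurenine enzymes, 5 were fitted in heart with 0 calls and a median of 0.21, 3 of them (Got2, Kyat1 and Kyat3) higher at an unadjusted p under 0.05 against 9.65% of all genes, and 6 in TA with 0 calls and a median of -0.09. Got2 was highest among them, at 0.23 in heart (limma adjusted p = 0.104). The hypoxia-inducible factors (HIFs) share ARNT with the AHR. Of 10 HIF targets, 9 were fitted in each tissue with 0 calls. In heart 4 of these targets were higher and 1 lower at an unadjusted p under 0.05, against 9.65% (higher) and 7.99% (lower) of all genes. They included the prolyl hydroxylase Egln3 at 0.57 and the mitophagy receptor Bnip3 at 0.35 (limma adjusted p = 0.0956 and 0.112). The heart differences in tissue markers given for Tiparp move with these lists too, and their part was not tested. The lists were chosen with earlier results of these data known, so their shares are descriptions.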

How the data were processed

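The authors trimmed reads with Trim Galore 0.6.10, quantified them with Salmon 1.10.3 on GRCm39, summarised them per gene and deposited TPM for 56980 identifiers, of which 56236 had a GENCODE M39 symbol. RNA came from snap-frozen tissue and libraries from an mRNA kit. The annotation release is not given in the sources used here. The deposited TPM keep no depth, so no count model was run and no counting error can be given.

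Samples were grouped by their labels. The fits used limma 3.58.1 in R 4.3.3 (lmFit, eBayes with trend) on log2(TPM + 0.5) of genes that reached 0.5 TPM in 3 or more mice, with Benjamini-Hochberg adjustment over all genes fitted. TA was fitted with 1 surrogate variable (5 rounds of re-weighting), heart with labelled sex, and tissue contrasts and the difference of effects over all 15 libraries with labelled sex. Calls needed a log2 fold change beyond 0.5 in size and an adjusted p below 0.05. Single genes were compared with exact permutation tests of the mean log2(TPM + 0.5). Named genes were the 6 AHR genes, per list the up to 4 smallest p-values per tissue and the 2 highest TPM, and per AHR gene the 3 most correlated genes; Nqo1 was named after its values were seen. Members and lists were chosen with earlier results of these data known. Code was tested on simulated data. Alternatives were pseudocounts, filters, scaling, covariates, a replicate block and leaving out each mouse. Markers were summed TPM of listed genes. Of overlapping genes, Gm42672 lies within Arnt, and with no strand setting stated their reads may not be separable. A few genes that the naming rule picks are not reported here.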

Additional observations from a re-analysis of the deposited data

Results flagged for a closer look

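Of 18 sets of 4 mice (6 genes in the 3 groups of that size), 4 held a value far from the others by Dixon's test, which chance gives in about 1 of 20 sets. In D + Q TA, Ahrr was 0.853 TPM in replicate 4, against at most 0.0653 TPM in the other 3 mice. Tiparp was 45.3 TPM in D + Q TA replicate 1, against at most 15.3 TPM in the others. In vehicle heart, Ahrr was 2.33 TPM in replicate 3, against at most 1.65 TPM, and Cyp1a1 was 0.0128 TPM in replicate 4, against 0 in the others, where any value above 0 would have stood apart. The cause of these values was not tested. The effect of D + Q on Bmal1, a bHLH-PAS relative of Ahr, differed between tissues in the fit of all 15 libraries, by 1.90 on the log2 scale (limma adjusted p = 0.00842). The call was lost in 1 of 15 fits that left out a single mouse (limma adjusted p up to 0.0816). It was also lost with a replicate block (limma adjusted p = 0.101).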

How the results depend on the processing

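The number of AHR genes called was 0 in TA, in heart and for the difference of effects under every alternative run, and 2 to 4 between tissues. Of 599 single-gene values (the AHR genes, and Bmal1 and Epas1 in heart and for the difference of effects), 534 kept direction and side of the threshold, 37 reversed, 26 lost a call and 2 gained one, the lost calls being those of Bmal1, Epas1 and Arnt. The reversed values passed no test. In TA, Ahr was 0.022 and Tiparp 0.17 without the surrogate variable, and Tiparp was 0.29 with labelled sex or among males only. In heart, Ahr was -0.012 with sex read from expression and Cyp1b1 0.16 with the atrial score. For the difference of effects, Ahrr was 0.029 with a pseudocount of 1, 0.051 with median-of-ratios scaling and 0.067 with no covariate, where Ahr was -0.0034. Between D + Q–treated tissues, Ahr was -0.084 with median-of-ratios scaling and -0.070 with sex read from expression. With that scaling Cyp1b1 between vehicle tissues was -0.93 (limma adjusted p = 0.0401), a call.

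Leaving out single mice, the values ran in TA from -0.47 to 0.039 for Ahr, -0.20 to 0.14 for Arnt and -0.27 to 0.72 for Tiparp. In heart they ran from -0.075 to 0.16 for Ahr, -0.19 to 0.11 for Cyp1b1 and -0.25 to -0.19 for Tiparp, whose adjusted p was 0.284 to 0.575. For the difference of effects they ran from -0.15 to 0.47 for Ahr, -0.017 to 0.18 for Arnt and -0.14 to 0.31 for Ahrr, and between D + Q–treated tissues from -0.20 to 0.35 for Ahr. Arnt there was 0.49 without D + Q TA replicate 1, below the fold threshold.

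Replicate numbers were shared between groups but the mice were different animals, and same-numbered mice correlated at -0.12 on average in TA and 0.0035 in heart, so the numbers do not pair them. With a replicate block, the counts of calls were 0, 0, 0, 3 and 3, Ahr in TA was 0.022, Tiparp 0.17, Tiparp in heart -0.25 and the Ahrr difference of effects 0.045. TPM without depth, 3 to 4 mice per group and the low level of Cyp1a1 and Ahrr limit what could be detected. Neither the time from the last dose to tissue collection nor the hour of collection is given in the sources used here.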
